A study of Mus musculus with 108 samples.

Results

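Stmn1 and other cell cycle genes, 43 genes chosen by name out of 45195 gene rows of the deposited expression table, were followed across single acinar cells of the mouse pancreas. All 43 members had a row and were measured. They were split by the phase in which their products are known to act: 14 act in or around DNA replication (S phase), 23 act in late S phase, G2 and mitosis (G2/M), and 6, among them Stmn1, belong to no single phase. The cells numbered 31 and 40 are described side by side, and the cells other than these (85 with a full and 21 with a short deposited total, defined further on) are described for members present at a low level. Both cells were singled out with earlier results of these data known, so their high values describe how they were chosen and carry no test.

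The cells were exocrine acinar cells, which make and secrete the digestive enzymes, from untreated male C57BL/6 mice aged 12 weeks. The tissue was digested with collagenase and then Accutase, which per the labels' protocols left a suspension of single cells and of acinar cell clusters, and individual cells were collected for amplification by a modified SMART-seq2 method. This method reads whole transcripts and has no molecular identifiers. The labels put every cell into 1 group without saying which animal it came from, so cells are not replicates, and neither a p-value nor a standard error is given.

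A dividing cell makes its cell cycle transcripts in waves. E2F factors switch on the replication genes near the start of S phase, and the DREAM and MuvB complexes, with B-MYB and FOXM1, time the mitotic genes to G2 and mitosis through a short promoter element, the cell cycle genes homology region (CHR), often beside CCAAT boxes bound by NF-Y. In a resting cell DREAM keeps both sets low. Acinar cells of the adult pancreas divide rarely.

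The promoters of the members were read to see which of these letters they hold. The split by phase used no sequence, but genes of a phase are partly known through such elements, so the motifs are not independent of it. RefSeq promoters on GRCm38.p6, the build also called mm10, were found for 37 of the 43 members, each running from 250 bases before to 50 bases after the annotated start (300 bases). Mcm4, Ccne2, Gmnn, Ccna2, Aurkb and Stmn1 had no entry in that table. The letters searched on both strands were TTTGAA for the CHR, CCAAT for the CCAAT box, and TTTCCCGC, TTTGGCGC, TTTCGCGC or TTTGCCGC for E2F. The 250 bases before the start are printed for 3 G2/M genes that hold the CHR and for 2 S-phase genes, with every match in capitals, 5′ to 3′ in the direction of transcription. Cdc20 (chr4:118437344-118437593, minus strand) activates the anaphase-promoting complex, Ube2c (chr2:164769679-164769928, plus strand) is the ubiquitin-conjugating enzyme of that complex, and Cdk1 (chr10:69352913-69353162, minus strand) is the mitotic kinase. Mcm6 (chr1:128359706-128359955, minus strand) is a subunit of the replicative helicase, and Rrm2 (chr12:24708004-24708253, plus strand) is the regulated subunit of ribonucleotide reductase.
Cdc20: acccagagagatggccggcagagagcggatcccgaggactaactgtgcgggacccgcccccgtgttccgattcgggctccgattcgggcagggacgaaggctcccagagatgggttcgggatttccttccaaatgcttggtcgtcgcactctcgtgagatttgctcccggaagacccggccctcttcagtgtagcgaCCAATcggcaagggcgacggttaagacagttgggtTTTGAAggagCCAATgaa
Ube2c: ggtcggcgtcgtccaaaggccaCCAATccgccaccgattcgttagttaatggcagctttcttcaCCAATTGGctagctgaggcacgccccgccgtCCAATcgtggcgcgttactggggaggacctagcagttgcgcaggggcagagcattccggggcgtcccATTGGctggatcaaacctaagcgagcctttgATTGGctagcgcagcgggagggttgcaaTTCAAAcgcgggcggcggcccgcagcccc
Cdk1: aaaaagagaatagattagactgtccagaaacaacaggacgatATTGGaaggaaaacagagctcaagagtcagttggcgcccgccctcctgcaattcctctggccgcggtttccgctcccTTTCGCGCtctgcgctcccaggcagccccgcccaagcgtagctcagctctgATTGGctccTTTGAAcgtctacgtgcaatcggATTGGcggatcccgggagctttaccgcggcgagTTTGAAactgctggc
Mcm6: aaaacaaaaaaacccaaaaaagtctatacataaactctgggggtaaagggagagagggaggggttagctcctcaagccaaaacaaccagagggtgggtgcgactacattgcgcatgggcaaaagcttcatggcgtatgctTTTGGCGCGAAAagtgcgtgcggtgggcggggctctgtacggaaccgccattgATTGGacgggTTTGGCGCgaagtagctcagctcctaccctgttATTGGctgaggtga
Rrm2: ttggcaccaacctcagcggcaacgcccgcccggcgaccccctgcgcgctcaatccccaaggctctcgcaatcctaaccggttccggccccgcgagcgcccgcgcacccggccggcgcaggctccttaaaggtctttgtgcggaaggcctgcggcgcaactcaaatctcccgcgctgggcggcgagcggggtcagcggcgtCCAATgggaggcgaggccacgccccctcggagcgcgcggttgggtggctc

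In Cdc20 the CHR began 18 bases before the start and a CCAAT box 53 bases before it. The CHR of Ube2c lay on the opposite strand 29 bases before the start, and its 6 CCAAT matches included a pair that overlap on opposite strands. Cdk1 held 2 CHR matches, 3 CCAAT boxes and 1 E2F match. Mcm6 held 3 E2F matches, of which 2 overlap on opposite strands, the farther beginning 110 bases before the start, and Rrm2 held 1 CCAAT box and none of the E2F letters. Absence of a match says only that these letters are not in this window.

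Across the phases, the CHR letters stood in 15 of 21 G2/M promoters (71.4%) and in 1 of 11 S-phase promoters (9.09%, Mcm2), beside 17.9% of all 32851 promoters. The 15 G2/M promoters with a CHR also each held a CCAAT box, a combination found in 6.95% of all promoters. CCAAT boxes, with or without a CHR, were in 19 of the 21 G2/M promoters and in 8 of the 11 S-phase promoters. Of all promoters, 37.4% held a CCAAT box. The E2F letters were in 3 of the 11 S-phase promoters (27.3%: Mcm3, Mcm5 and Mcm6) and in 1 of the 21 G2/M promoters (4.76%: Cdk1), beside 2.26% of all promoters. Further S-phase and G2/M genes that are no members, listed by textbook function, held the CHR in 12.5% of 40 S-phase and 65.1% of 43 G2/M promoters, and the E2F letters in 16 of the 40 and 3 of the 43 (6.98%). Of the 5 promoters of members of no single phase, none held a CHR and 4 held a CCAAT box. A match describes letters in a window, and no binding was measured here.

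**Figure D1:**
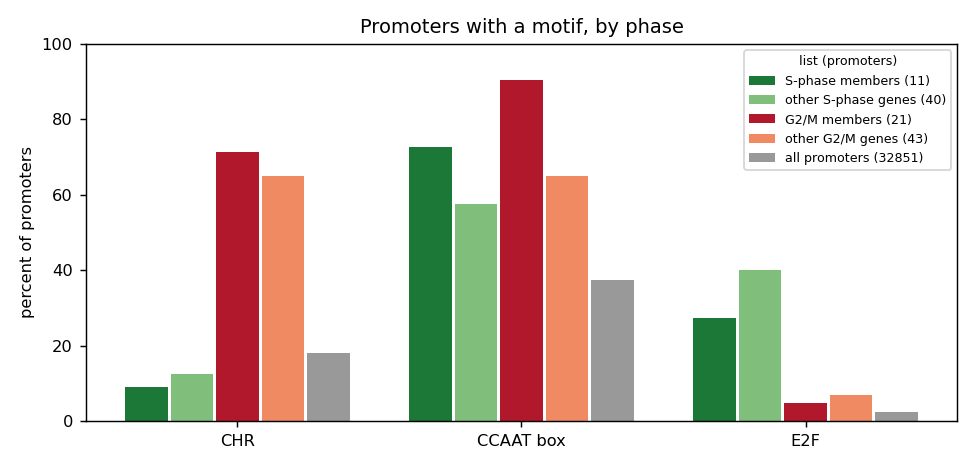
Share of RefSeq promoters (percent, vertical axis) that hold the CHR, CCAAT box or E2F letters on either strand, for S-phase and G2/M members, for further genes of each phase, and for all 32851 promoters; the number of promoters per list is in the legend. The CHR bars of the G2/M lists stand at 71.4% and 65.1% against 17.9% of all promoters, and the E2F bars of the S-phase lists at 27.3% and 40% against 2.26%.

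Expression values are TPM, a share of the transcripts of a cell that is already scaled to transcript length. How many reads stand behind a cell is unknown from TPM, and a gene is called detected here at 1 TPM or more. Cell 31 had 4270 genes detected, within the range of the other cells (2624 to 5201, median 4144), whereas cell 40 had 6946, above every one of them. Digestive enzyme transcripts made up 87.2% of the TPM of cell 31 and 85.5% of cell 40, beside 76.3% to 94.4% in the others, and 9 of 10 acinar markers were detected in each of the 2 cells. Endothelial markers were all at 0 in cell 31 (0 of 11), and stellate markers too (0 of 11). In cell 40, 9 of 11 endothelial markers were detected with a summed level of 90.7 TPM (Plvap 25.4, Egfl7 22.7, Pecam1 11.5), with Cldn5 at 0 and Cdh5 at 0.52, beside a highest sum of 4.09 TPM in any other cell. Cell 40 also had 3 of 11 stellate markers (sum 15.6 TPM) and 7 of 9 ductal markers (sum 610 TPM, with Spp1 at 294 TPM), against 3 of 9 ductal markers in cell 31. These stellate and ductal counts and sums were inside the range of the other cells. Of those, 1 reached 4 stellate markers and 18.3 TPM (cell 96), and the highest ductal values were 7 markers and 748 TPM. Single markers were not all inside it: 3 of 11 stellate and 3 of 9 ductal markers of cell 40 exceeded every other cell. In cell 31, 0 did so. Of all genes detected in any cell, 11.9% exceeded every other cell in cell 40. The part of these markers and of the high gene number in the results for cell 40 was not tested.

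Most members stood higher in cells 31 and 40 than in any other cell. In cell 31, 33 of the 43 members exceeded the highest of the other cells, beside 3.43% of the 12992 genes detected in any cell. In cell 40, 41 members did so, beside 11.9% of all genes, and 33 did so in both cells, beside 2.02%. The 33 comprised 6 of 14 S-phase members, 21 of 23 G2/M members and all 6 members of no single phase. Cell 31 thus held nearly the whole G2/M list above the other cells but 6 of the 14 S-phase members, and cell 40 held 12 S-phase and all 23 G2/M members above them. The bar was lower for G2/M: 19 of its members never reached 1 TPM in the other cells, against 1 S-phase member. Of the 21, Bub1 (0.80 TPM) and Cenpe (0.49 TPM) stayed under 1 TPM in cell 31. At 2 times the highest other cell and 1 TPM, cell 31 kept 5 S-phase and 18 G2/M members, and cell 40 kept 9 and 22. The share of all genes under this stricter rule was not computed. Members detected at 1 TPM or more numbered 9 S-phase and 19 G2/M genes in cell 31, and 13 and 22 in cell 40. Of the 12992 genes detected in any cell, 4270 were detected in cell 31 and 6946 in cell 40.

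**Figure D2:**
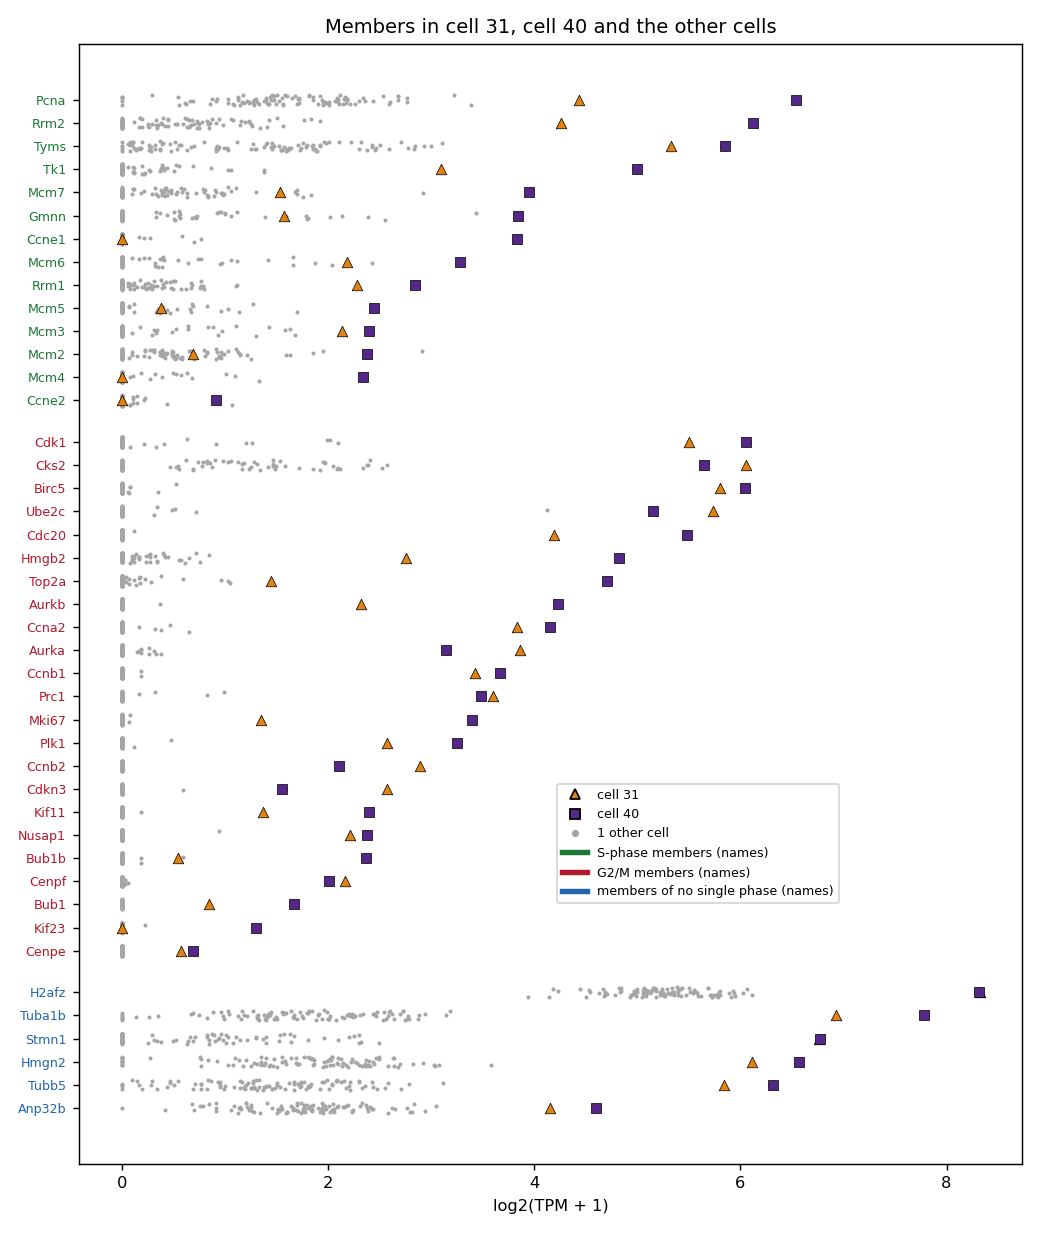
Level of each member as log2(TPM + 1) (horizontal axis) in cell 31 (triangles), cell 40 (squares) and each other cell (grey points), grouped by phase. Of the G2/M members 21 of 23 lie right of every grey point in both marked cells. The S-phase members Mcm4, Mcm5, Mcm6, Mcm7, Ccne1 and Gmnn do so in cell 40 and not in cell 31.

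Stmn1, on chr4:134468320-134473843, codes for stathmin, a protein that binds tubulin dimers, destabilises microtubules and is abundant in proliferating cells. Its level was 107.55 TPM in cell 31 and 108.72 TPM in cell 40, a 1.01-fold difference, and its highest value elsewhere was 4.65 TPM in cell 38. Both cells thus stood more than 23-fold above the highest other cell (23.1-fold and 23.4-fold). Over the other cells, Stmn1 was detected in 27 (25.5%, 95% exact Clopper-Pearson interval 17.5% to 34.9%), between 1.02 and 4.65 TPM, with a median of 1.90 TPM among those 27. Its median over all other cells was 0, and it was listed above 0 in 50. Intervals over cells cover counting error only, since cells of 1 animal share their source.

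Differences between the 2 cells are given for the deposited TPM, on which cell 40 was higher for most genes of any kind. Pcna, the sliding clamp of the replicative polymerases, was at 20.7 TPM in cell 31 and at 92.1 TPM in cell 40, 4.45-fold higher in cell 40. It was also the S-phase member found most widely elsewhere, in 84.9% of the other cells (90 cells), but at a median of 1.94 TPM and at most 9.48 TPM (cell 28). Both marked cells were above that highest value.

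The MCM genes, whose products form the hexameric helicase loaded at replication origins in G1, were lower in cell 31 than in cell 40 on the deposited TPM. Mcm7 was at 1.89 TPM in cell 31 and at 14.5 TPM in cell 40, and reached 6.60 TPM in cell 1. Mcm6 was at 3.54 TPM in cell 31 and at 8.75 TPM in cell 40, and reached 4.37 TPM in cell 74. In cell 31 neither gene exceeded the highest other cell, and in cell 40 both did. The other 4 subunits, Mcm2, Mcm3, Mcm4 and Mcm5, were between 0 and 3.39 TPM in cell 31 and between 4.07 and 4.46 TPM in cell 40, with Mcm4 listed at 0 in cell 31. Mcm3, at 3.39 TPM, was the 1 subunit of cell 31 above every other cell (highest 2.21 TPM). Summed over the 6 subunits, cell 31 had 9.73 TPM and cell 40 had 40.2 TPM, and the other cells had a median of 0.735 and a maximum of 14.8 TPM (cell 1). The MCM sum of cell 31 was above that median and exceeded by 4 of the other cells, and that of cell 40 was outside it.

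Genes of deoxynucleotide supply were above the other cells in both. Tyms, thymidylate synthase, was at 39.1 TPM in cell 31 and at 56.8 TPM in cell 40, against at most 7.62 TPM in the other cells. Rrm2 was at 18.2 and 68.7 TPM, against at most 2.79 TPM. Tk1, the thymidine kinase of the salvage route, was at 7.57 and 31.01 TPM, against at most 1.61 TPM. Of this group Tyms differed least between the 2 cells (1.45-fold), while Rrm2 and Tk1 were 3.79-fold and 4.10-fold higher in cell 40. Rrm1, the larger and less regulated reductase subunit, was at 3.88 and 6.18 TPM, against at most 1.17 TPM.

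The regulators of replication onset were low or at 0 in cell 31. Ccne1, cyclin E1, which drives entry into S phase with CDK2, was listed at 0 in cell 31 and at 13.2 TPM in cell 40, and was below 1 TPM in every other cell (highest 0.70 TPM, cell 59). Ccne2 was at 0 in cell 31 and 0.88 TPM in cell 40, under its highest value elsewhere (1.10 TPM). Gmnn, geminin, which blocks a second loading of origins, was at 1.98 TPM in cell 31 and at 13.4 TPM in cell 40, and reached 9.85 TPM in cell 48. Geminin protein is held until mitosis, so Gmnn can also be counted with later phases. Leaving out Gmnn and Hmgb2 left the contrast between phases at 1.58 on the log2 scale, against 1.56 with them.

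The CDK1 group was high in both cells. Cdk1 was at 44.2 TPM in cell 31 and at 65.6 TPM in cell 40, against at most 3.28 TPM elsewhere (cell 95). Ccna2, the cyclin of S phase and G2, was at 13.2 and 16.8 TPM, against at most 0.57 TPM. Ccnb1, the main mitotic cyclin, was at 9.78 and 11.8 TPM, against at most 0.14 TPM. These 3 genes differed by at most 1.48-fold between the cells. Ccnb2, the second B-type cyclin, was at 6.42 TPM in cell 31 and at 3.30 TPM in cell 40, and was listed at 0 in all other cells. Cks2, a small subunit that docks CDKs to their substrates, was at 65.3 and 49.2 TPM, the highest G2/M value of cell 31, and at most 4.94 TPM elsewhere. Cdkn3, a phosphatase that acts on CDKs, was at 4.96 and 1.93 TPM, the G2/M member that leaned most towards cell 31 (2.57-fold).

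Mitotic kinases and their partners followed no single direction. Birc5, survivin, and Aurkb, aurora B, work together in the chromosomal passenger complex. Birc5 was at 54.9 TPM in cell 31 and at 65.2 TPM in cell 40, against at most 0.44 TPM elsewhere. Aurkb was at 4.00 and 17.7 TPM, so that it alone of the pair was far higher in cell 40 (4.44-fold). Aurka, aurora A of the centrosomes, leaned the other way, with 13.6 TPM in cell 31 and 7.83 TPM in cell 40. Plk1, the polo kinase of mitotic entry, was at 4.97 and 8.55 TPM. The checkpoint kinase genes Bub1 and Bub1b were between 0.46 and 4.18 TPM in the 2 cells.

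The anaphase-promoting complex and the spindle genes showed the same mixture. Cdc20 was at 17.2 TPM in cell 31 and at 43.8 TPM in cell 40, and at most 0.09 TPM elsewhere. Ube2c was at 52.2 TPM in cell 31 and at 34.7 TPM in cell 40. It was also the 1 G2/M member with a high value elsewhere, 16.4 TPM in cell 70, where no other G2/M member was detected (Nusap1, which bundles spindle microtubules, was at 0.92 TPM there). Prc1, the bundler of midzone microtubules, was at 11.2 and 10.2 TPM. The motors Kif11 and Kif23, the kinetochore genes Cenpe and Cenpf, and Nusap1 were between 0 and 4.28 TPM in both cells.

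Genes of chromosome structure were those of the G2/M list that most favoured cell 40. Top2a, which untangles replicated DNA, was at 1.72 TPM in cell 31 and at 25.2 TPM in cell 40, 14.7-fold higher in cell 40. Mki67, the Ki-67 protein that coats mitotic chromosomes, was at 1.55 and 9.57 TPM, and at most 0.06 TPM elsewhere. Hmgb2, a DNA-bending chromatin protein, was at 5.77 and 27.4 TPM, and below 1 TPM in all other cells, though listed above 0 in 31 of them. Transcripts of these 3 genes are known to rise from S phase onward.

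The members of no single phase, Stmn1 with tubulin and chromatin genes, differed less between the 2 cells than most S-phase members. H2afz, a histone H2A variant made through the cell cycle, was at 318.7 TPM in cell 31 and at 318.3 TPM in cell 40, and was the only member detected in every other cell (median 36.7, highest 68.1 TPM). Tuba1b was at 120.85 and 218.78 TPM, the largest difference of the 6 members, and Tubb5 was at 56.5 and 78.6 TPM. The chromatin proteins Hmgn2 and Anp32b were at 68.4 and 93.8 TPM and at 16.8 and 23.3 TPM. No member of the 6 differed by 1 or more on the log2(TPM + 1) scale, and all 6 were above every other cell in both. Values of tubulin, histone and Hmgn2 genes are uncertain, because near-identical copies share reads: Tuba1c was at 33.3 and 41.8 TPM, while Tuba1a was listed at 0 in cell 31 and at 8.05 TPM in cell 40.

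Set against each other by phase, cell 40 was higher than cell 31 for all 14 S-phase members and for 16 of 23 G2/M members, beside 79.4% of the 7465 genes detected in either cell. The difference reached 1 on the log2(TPM + 1) scale in 10 S-phase and 8 G2/M members, beside 47.8% of those genes. It reached 1 in favour of cell 31 in 0 S-phase members and 1 G2/M member (Cdkn3), beside 5.80%. The median difference was 1.88 for S-phase members and 0.33 for G2/M members, and the median of all 7465 genes was 0.93. The S-phase median thus lay above that of all genes and the G2/M median below it, although 4 of 14 S-phase members (Mcm3, Tyms, Rrm1 and Ccne2) lay below 0.93 and 8 of 23 G2/M members, led by Top2a, above it. Because the shift of all genes depends on scaling, the direction of the G2/M median does too. With median-of-ratios size factors, which reduce the shift of all genes to 0.52, the S-phase median was 1.37 and the G2/M median was -0.057. The set of genes compared matters too: over the 3751 genes detected in both cells the median difference was 0.42. The G2/M median of 0.33 lay near that value, and was 0.44 over members at 1 TPM in either cell. After centring on those 3751 genes, an alternative chosen after seeing the data, the medians were 1.46 and -0.095. Cell 40 is also the cell with 6946 genes and 9 of 11 endothelial markers detected, against 4270 genes and 0 of 11 in cell 31, and the part of this in the difference was not tested.

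In summed TPM, S-phase members came to 101.1 TPM in cell 31 and to 323 TPM in cell 40 (3.19-fold), and G2/M members to 321 and 419 TPM (1.30-fold). The ratio of the S-phase to the G2/M sum was 0.315 in cell 31 and 0.770 in cell 40, a quantity within each cell that no scaling between cells alters. The 53 further S-phase genes and 54 further G2/M genes gave the same order with smaller distance: their medians were 1.22 and 0.72, and their sums differed 3.37-fold and 1.69-fold. Of the further S-phase genes, Fen1, the flap nuclease of lagging-strand synthesis, was at 5.27 and 27.6 TPM, and Dut, the dUTPase, at 6.82 and 21.6 TPM. Slbp, the histone mRNA binding protein made in S phase, was at 1.74 and 17.2 TPM. Cks1b of the further G2/M genes leaned to cell 31, as did Cks2, with 37.5 and 19.9 TPM.

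**Figure D3:**
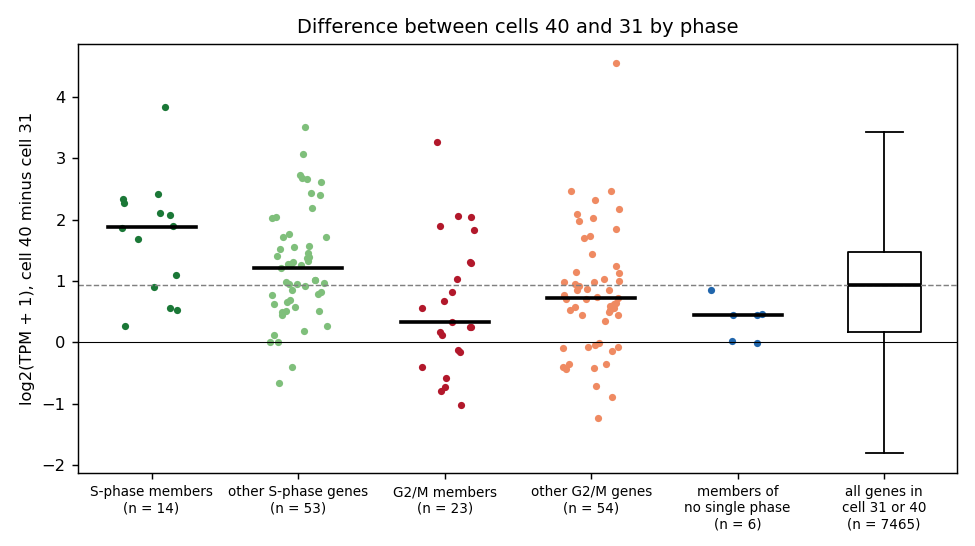
Difference between cell 40 and cell 31 on the log2(TPM + 1) scale (vertical axis) for each gene (points) with the median of each list (black bars); the box holds the quartiles of all 7465 genes detected in either cell, with whiskers to 1.5 times its height and their median of 0.93 as a dashed line. The S-phase medians (1.88 and 1.22) lie above and the G2/M medians (0.33 and 0.72) below that line; with size factors the median of the G2/M members was -0.057.

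Genes of the control system around the members were counted in the same way. A list of 24 genes held G1 cyclins, CDKs, and E2F, Rb and related factors. Of these, 4 were above every other cell in cell 31 and 8 in cell 40, beside 3.43% and 11.9% of all genes. Cdk4, the kinase of G1 progression, was at 9.56 and 14.9 TPM and was detected in 99.1% of the other cells, where it reached 18.9 TPM. Ccnd2 and Ccnd3, its D-type cyclin partners, were detected in 98.1% and 97.2% of them, and neither marked cell exceeded the highest of them. Of 20 CDK inhibitor and arrest genes, 2 were above every other cell in cell 31 and 3 in cell 40, the latter near the 11.9% of all genes. Cdkn1a, the p21 inhibitor, was at 29.1 TPM in cell 31 and at 151 TPM in cell 40, against a median of 2.54 and a maximum of 60.7 TPM (cell 54) elsewhere. Btg2, an antiproliferative gene, was at 0.51 and 81.1 TPM, and reached 119 TPM in cell 38.

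Among the other cells, the phases differed in how often a member was detected. S-phase members were detected in 15.6% of gene-cell pairs (231 detections), G2/M members in 1.76% (43 detections) and members of no single phase in 75.8%, beside 31.97% for all 12992 genes. Of the 43 members, 20 never reached 1 TPM outside the marked pair, beside 3.27% of the 12992 genes. That share is kept low by its filter. A gene undetected in the other cells is among the 12992 only if cell 31 or 40 reached 1 TPM. No such filter was set on the members, and Cenpe, at 0.49 and 0.62 TPM in cells 31 and 40, is among the 20. These 20 members were 19 of the G2/M list and Ccne1. For each, 0 detections in the other cells allows a share of up to 2.83% when 3 cells are taken as the limit, and the exact interval reaches 3.42%. Members detected in at least 10% of the other cells numbered 13, beside 54.9% of all genes: 6 S-phase members, all 6 members of no single phase, and Cks2 alone of the G2/M list. Only 7 members were detected in over 50% of them, beside 28.2% of all genes.

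The S-phase members detected most often were Pcna (84.9% of the other cells), Tyms (55.7%), Rrm2 (16.04%), Gmnn (13.2%), Mcm2 (11.3%) and Mcm7 (10.4%). Their levels there were low. Tyms had a median of 1.46 TPM over these cells, and Rrm2 had a median of 0.28 TPM. Of the G2/M list, Cks2 was detected in 35 cells (33.02%, interval 24.2% to 42.8%), Cdk1 in 5, Top2a in 2 and Ube2c in 1. Without Cks2, the other 22 G2/M members gave 8 detections in 2332 gene-cell pairs (0.343%). A cell had a median of 2 S-phase members (range 0 to 8) and 0 G2/M members (range 0 to 2). The 3 cells with 2 G2/M members each had Cdk1 and Cks2.

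**Figure D4:**
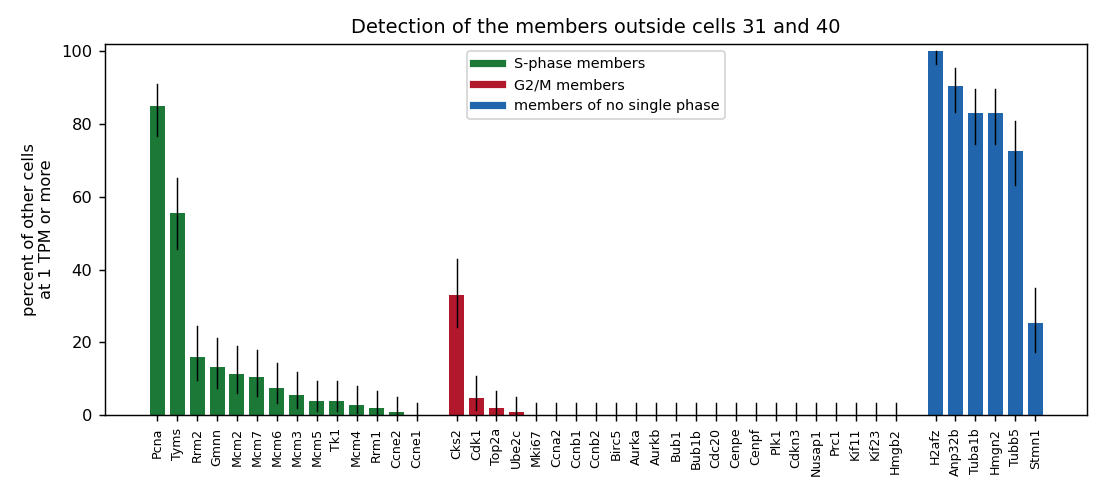
Percent of the other cells in which each member reached 1 TPM (bars, by phase), with exact 95% Clopper-Pearson intervals as lines. Pcna at 84.9% and Tyms at 55.7% lead the S-phase members, Cks2 at 33.02% leads the G2/M members, 19 of which have no bar, and H2afz reaches 100% among members of no single phase.

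The other cells ranged widely in low-level S-phase detection. Cell 28 had 8 S-phase members detected (Pcna 9.48, Mcm2 2.88, Mcm4 1.51, Mcm5 2.24, Mcm6 3.10, Mcm7 2.56, Tyms 2.79 and Tk1 1.61 TPM), and cell 74 had 6 (Pcna 5.03, Mcm2 1.33, Mcm3 1.99, Mcm6 4.37, Mcm7 2.25 and Rrm1 1.15 TPM). In both, MCM subunits and Pcna were detected together while G2/M members were not, apart from Cks2 in cell 28. Cdk1 was just under the detection level in cell 74, at 0.89 TPM. Detected Pcna (84.9% of the other cells) and no detected G2/M member (66 cells) were each common. Cells 28 and 74 were also the leading ones in the list of 53 further S-phase genes, which shares no gene with the members. Cell 74 had 17 of them and cell 28 had 15, beside a median of 6. They also had further G2/M genes, 11 of 54 in cell 28, the highest number of the other cells, and 7 in cell 74, beside a median of 4. Their numbers of detected genes, 4059 and 4468, were inside the range of the other cells, and neither had an endothelial or stellate marker detected. Both were picked from their values, so this is a description.

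Over MCM subunits alone, 81 of the other cells had none of the 6 detected and 5 had at least 3. Cell 28 had 5 subunits, cells 74 and 35 had 4, and cells 1 and 12 had 3. In cell 1 the helicase genes were unequal, with Mcm2 at 6.51 and Mcm7 at 6.60 TPM while Mcm4 and Mcm5 were listed at 0. In cell 35 they were nearer to even, with Mcm6 at 2.68, Mcm7 at 2.38 and Mcm3 at 2.11 TPM. Across the 85 and 21 other cells, the number of S-phase members and the number of further S-phase genes detected had a Pearson r of 0.51 and a Spearman rho of 0.32, and 0.37 and 0.28 without cells 28 and 74. Both counts come from the same library, and each also went with the number of all genes detected in a cell (Spearman rho 0.22 and 0.44). The relation is given as a description of these cells.

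**Figure D5:**
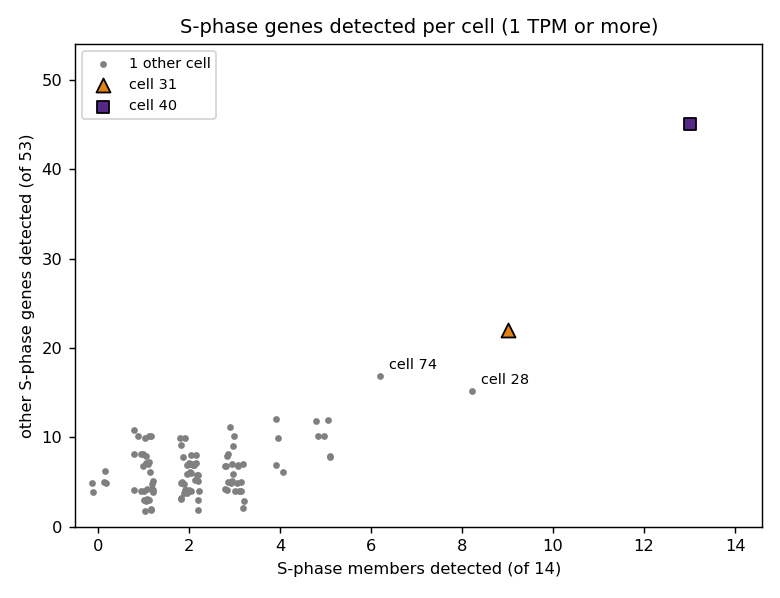
Number of S-phase members detected (horizontal axis, of 14) against the number of further S-phase genes detected (vertical axis, of 53) in each cell, with the other cells as grey points shifted slightly so that they do not overlap. Cell 40 lies at 13 and 45, cell 31 at 9 and 22, and cells 28 and 74 at 8 and 15 and at 6 and 17, above the median of 2 and 6 over the other cells.

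Detection of Stmn1 in the other cells was set beside that of the other members. The 27 cells with Stmn1 had S-phase members in 19.8% of gene-cell pairs and the 79 cells without it in 14.1%. For G2/M members the shares were 1.29% and 1.93%, and for the 5 remaining members of no single phase 87.4% and 85.3%. Cells with Stmn1 had a median of 4224 genes detected and cells without it 4137.

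The deposited TPM of 21 cells, all numbered above 91, summed to 788380 to 990520, a short total beside that of every other column, and the members were also described apart from them. S-phase members were detected in 15.9% of pairs in the 85 other cells with a full total and 14.3% in the 21 with a short total, and all genes in 32.6% and 29.6%. G2/M members were detected in 1.64% and 2.28%, an order that turned at the level of above 0 TPM. Stmn1 was detected in 22 of 85 (25.9%, interval 16.99% to 36.52%) and 5 of 21 cells (23.8%, interval 8.22% to 47.2%). Cells numbered 1 to 48 had S-phase members in 17.9% and Stmn1 in 31.1% of cells (14 of 45, interval 18.2% to 46.6%). Cells numbered 49 to 91 had them in 13.6% and 20.0% (8 of 40, interval 9.05% to 35.6%). The intervals of Stmn1 overlap between all these sets, which are not groups of the study. The bound at 48 was chosen in earlier work on these data and is not given by the labels.

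Ranked by the smaller of the excesses of cells 31 and 40 over the highest other cell, on the log2(TPM + 1) scale, the members were led by Birc5 (5.28), Stmn1 (4.26), Cdc20 (4.07), Tuba1b (3.75) and Cdk1 (3.40). No gene outside the list exceeded the first 4 of them. The 10 leading genes that are no members were Cdca3, Pbk, Lockd, Hist1h2ab, Knstrn, Hist1h2ap, Melk, Oip5, Spc24 and Spc25. Cdca3, a gene of mitotic entry, was at 28.4 TPM in cell 31 and at 26.9 TPM in cell 40, against at most 1.18 TPM elsewhere. Pbk, a mitotic kinase, was at 28.7 and 47.6 TPM, against at most 1.76 TPM. Spc24 and Spc25, both of the NDC80 kinetochore complex, were at 20.2 and 19.7 TPM and at 14.2 and 26.6 TPM. Hist1h2ap, a replication-dependent histone H2A gene, had 150 TPM in cell 31 and as much as 643 TPM in cell 40, against at most 19.2 TPM elsewhere. The order of this ranking is set by the 2 marked cells and the highest other cell, and is a description.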

How the data were processed

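Gene expression was measured in 108 single cells, of which 106 are those other than cells 31 and 40; 21 columns with a total under 999900 were taken as short. The deposited table held TPM for 45195 Ensembl gene rows, as the values themselves show (most columns sum to about 1000000). RSEM 1.2.21, STAR 2.4.2a, the mm10 build and edgeR appear per the submitters' processing notes, which give neither role nor order. If RSEM made the values, it shares reads among near-identical transcripts. The annotation the authors used is not given in the sources used here. Symbols and gene coordinates came from GENCODE M21 (GRCm38), which matched 44548 rows. Promoters came from RefSeq on GRCm38.p6. The members, the lists of further genes and the pair of cells were chosen with earlier results of these data known. Differences are on the log2(TPM + 1) scale, and detection means 1 TPM or more. The labels give 1 group with no animal named, so no test was made and values over cells are descriptions. No doublet caller was run. Members reaching 5 TPM in cell 31 or 40 are given with values, and genes outside the list by the 10 largest excesses over the highest other cell. The functions for differences between cells 40 and 31 and for genes above every other cell were tested on simulated data. The size factor function was checked on scaled copies of the mean values, and the interval function against a closed formula. Detection counts were not tested in this way. Alternatives changed the pseudocount, detection level, scaling, gene lists and cells left out. Python 3.11.15, numpy 2.4.6, pandas 2.3.3, scipy 1.17.1 and matplotlib 3.10.9 were used.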

Additional observations from a re-analysis of the deposited data

How the results depend on the processing

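Of 78 alternative values, 48 stayed near the reported one, 27 moved and 3 reversed. The median S-phase difference between cells 40 and 31 was 2.37 with a pseudocount of 0.1 TPM, 0.85 with 5 TPM, 2.17 after rescaling without digestive enzymes, 1.37 with size factors, 1.22 in the further S-phase genes and 1.46 after centring. The G2/M median was 0.26 with a pseudocount of 5 TPM, 0.16 without digestive enzymes, 0.44 over members at 1 TPM in either cell and 0.72 in the further G2/M genes, and it reversed to -0.057 with size factors and -0.095 after centring. Size factors divide the TPM of each cell by 1 factor before the log2 step. Centring subtracts 0.42, the median over the 3751 genes detected in both cells. Neither shift is shared by all genes: of the 7465 genes detected in either cell, 20.6% stood higher in cell 31. The S-phase median minus the G2/M median was 1.56 as reported and above 0 in every setting run: 2.03 and 0.59 with pseudocounts of 0.1 and 5 TPM, 2.01 without digestive enzymes and 0.50 in the further genes. Centring shifts both medians alike and cannot change it, and leaving out Ccne1 and Ccne2 cannot change the G2/M median. These fixed values are counted among the 48.

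In the other cells the counts followed the detection level. Counting any value above 0, Stmn1 was in 50 cells, S-phase members had 601 and G2/M members 162 detections, and 3 members were never detected. At 0.5 TPM these were 43, 354, 72 and 13, and at 5 TPM they were 0, 20, 1 and 32. The G2/M share in cells with a short total minus that in cells with a full total was 0.64 percentage points at 1 TPM and reversed to -1.83 above 0. The cause was not tested. The sum of histone genes in cell 40 over cell 31 was 2.65 as reported and 1.68 without Hist1h2ap. Counts of members above every other cell moved by less than 1.5 times in every setting run. Without cells 28 and 74, without cell 70, without Ccne1 and Ccne2, without Hist1h2ap, and centring were chosen after seeing the data. TPM keep no depth, no second cell repeats cell 31 or 40, and the labels do not give the number of animals behind the cells. No paired analysis was possible because all cells form 1 group.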

Other observations

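Replication-dependent and other histone genes, a set of 65 added after values were seen, were summed in the 2 marked cells. Of these, 19 were detected in cell 31 and 40 in cell 40. Their summed level was 406 TPM in cell 31 and 1073 TPM in cell 40, 2.65-fold higher in cell 40, beside 48.9 to 224 TPM (median 107.84) in the other cells. Hist1h2ap carried much of this, and without it the sums were 256 and 430 TPM (1.68-fold). Hist1h4d, an H4 gene, leaned to cell 31 with 97.02 against 63.16 TPM, although Hist1h2ap was at 150 and 643 TPM. Hist1h2bc was at 96.5 and 86.4 TPM, above its median of 39.7 TPM over the other cells and under the highest of them (114 TPM). Most replication-dependent histone mRNAs lack a poly(A) tail, and the libraries were made from poly(A) RNA, so these values count only transcripts that were captured. Near-identical histone copies share reads, and single histone values are uncertain.

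Relatives of Stmn1 and the tubulin members numbered 15 stathmin and tubulin genes. They reached 1 TPM in 14.3% of gene-cell pairs of the other cells, beside 31.97% for all 12992 genes. For 9 of the 15 no other cell reached 1 TPM, beside 3.27% of the 12992 genes, and 6 were listed at 0 throughout the other cells. Each of the 12992 genes had to reach 1 TPM in some cell, a filter not set on the relatives, so these low shares partly reflect silent genes. The 9 relatives of the chromatin members were detected in 46.8% of pairs, beside the same 31.97%. Among both lists Tuba4a, an alpha-tubulin gene, was detected in every other cell with a median of 13.9 TPM, and was at 20.5 and 40.6 TPM in cells 31 and 40. Hmgb1, the relative of Hmgb2, was also detected in every cell, with 33.05 and 42.95 TPM in the 2 cells against at most 15.5 TPM. The CDK inhibitor Cdkn2d was at 7.29 and 19.9 TPM, against at most 2.42 TPM, and was detected in 6 other cells. Cdkn2c was at 3.62 and 9.03 TPM, against at most 3.89 TPM, and was detected in 9. Cell 40's endothelial markers and gene number stand beside these values as beside those of the members, and their part was not tested.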
